A study of Mus musculus with 13 samples.

Results

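The genes described here were 10 genes of mouse chromosome 14 whose liver read counts separated, or were strongly shifted between, wild type (WT) and Nod2-/- mice: Cebpe, Klhl33, Gm26782, Phyhip, Ppp1r3e, Arhgef40, Pcdh17, Trim13, Ccdc122 and Lacc1. They are 10 of the 53465 genes counted, and all 10 were among the 13545 genes with enough reads to be tested. They were chosen for this difference between the genotypes, so their own differences are given as a description, and a call or adjusted p printed for one of them is no evidence of its difference. Liver polyA RNA was sequenced from 6 WT and 7 Nod2-/- male BALB/c mice. All 13 mice received the carcinogen DMBA (dimethylbenz[a]anthracene) as pups and a high fat diet (HFD), and were sampled at 30 weeks according to the labels. Nod2 is an innate immune receptor for bacterial peptidoglycan, and the study asked how its loss changes obesity-dependent liver cancer. The Nod2-/- line was on the BALB/c background, the WT founders came from a commercial colony, and the groups were not littermates. Nod2 is on chromosome 8 and the 10 genes are on chromosome 14. The loss of Nod2 and other inherited differences between the lines cannot be told apart in this design. The paper also reported more liver tumors and higher body weight in Nod2-/- than in WT males on this treatment. By flow cytometry it reported more neutrophils and inflammatory monocytes among the liver immune cells of Nod2-/- males at its last time point. Differences that go with tumors, weight or these cells cannot be told apart from genotype here either.

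Genes that lie near each other on a chromosome are inherited together, and a gene's level in a tissue depends both on its own control elements and on the cells present. Cebpe encodes C/EBP epsilon, a transcription factor of late granulocyte differentiation, and Lacc1 encodes an enzyme of purine nucleoside metabolism known from macrophages. Ppp1r3e encodes a glycogen-targeting subunit of protein phosphatase 1, Arhgef40 a guanine nucleotide exchange factor, Trim13 a ubiquitin ligase of the endoplasmic reticulum, and Pcdh17 a non-clustered protocadherin, a cell adhesion molecule best known from the brain.

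On GRCm38 the genes span 33.7 Mb of chromosome 14, a stretch that holds 222 tested genes. 2 adjoining pairs stand out in position. Lacc1 (ENSMUSG00000044350.14, chr14:77024200-77036904, minus strand) and Ccdc122 (ENSMUSG00000034795.14, chr14:77036772-77112257, plus strand) are arranged head to head, and their annotated ends overlap by 133 bases. In RefSeq the start sites face away from each other with 154 bases between them, and 12.2% of the 27025 gene symbols in the RefSeq promoter table have such a divergent partner within 1000 bases. These 154 bases are shown because they precede both genes, which were both higher in Nod2-/- mice (RefSeq, GRCm38.p6, chr14:77036618-77036771, plus strand).
Lacc1-Ccdc122 shared region: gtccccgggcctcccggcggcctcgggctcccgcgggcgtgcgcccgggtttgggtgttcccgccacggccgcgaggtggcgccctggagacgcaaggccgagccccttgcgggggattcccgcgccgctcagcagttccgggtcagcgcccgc
The shared region is 79.2% G and C with 23 CpG dinucleotides. Gm26782 (ENSMUSG00000097431.2, chr14:50870324-50880603, plus strand, annotated as antisense) and Klhl33 (ENSMUSG00000090799.2, chr14:50888582-50897507, minus strand) are 7.98 kb apart with no tested gene between them, and they differed in opposite directions. The 250 bases before the RefSeq start sites of this pair, of Trim13 and of Pcdh17 are shown because these genes were nearly silent in 1 genotype or lay next to one that was. Capitals mark matches on either strand to the CCAAT box (CCAAT), the TATA box (TATAAA) and the GC box (GGGCGG).
Gm26782, chr14:50870046-50870295, plus strand: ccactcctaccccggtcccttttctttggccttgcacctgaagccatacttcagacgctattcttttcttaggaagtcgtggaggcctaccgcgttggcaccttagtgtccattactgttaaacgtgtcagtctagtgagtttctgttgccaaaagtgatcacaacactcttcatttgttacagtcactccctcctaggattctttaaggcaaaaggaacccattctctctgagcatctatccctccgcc
Klhl33, chr14:50897484-50897733, minus strand: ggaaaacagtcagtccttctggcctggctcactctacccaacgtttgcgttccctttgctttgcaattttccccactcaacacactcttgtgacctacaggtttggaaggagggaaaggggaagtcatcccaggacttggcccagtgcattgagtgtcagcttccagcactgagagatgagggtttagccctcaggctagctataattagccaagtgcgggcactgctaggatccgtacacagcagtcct
Trim13, chr14:61597976-61598225, plus strand: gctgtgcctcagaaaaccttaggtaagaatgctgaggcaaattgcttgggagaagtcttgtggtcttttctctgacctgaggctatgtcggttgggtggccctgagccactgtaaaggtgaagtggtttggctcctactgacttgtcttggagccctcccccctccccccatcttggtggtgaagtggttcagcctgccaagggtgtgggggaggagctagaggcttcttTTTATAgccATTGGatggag
Pcdh17, chr14:84443313-84443562, plus strand: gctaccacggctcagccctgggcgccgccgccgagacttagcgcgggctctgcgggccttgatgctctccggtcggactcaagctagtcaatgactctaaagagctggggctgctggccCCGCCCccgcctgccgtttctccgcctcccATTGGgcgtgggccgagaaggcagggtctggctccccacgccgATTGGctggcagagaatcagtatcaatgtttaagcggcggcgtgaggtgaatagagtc
CCAAT was found in 33.8%, TATAAA in 12.4% and GGGCGG in 32.7% of the 32851 promoters in the table, searched on both strands. The Gm26782 and Klhl33 windows held none of the 3 motifs. The Trim13 window held CCAAT and TATAAA once each, and the Pcdh17 window held CCAAT at 2 places and GGGCGG at 1. CACGTG (6.02% of all promoters) and TTGCGCAA, a C/EBP consensus (0.164%), were in none of the 7 members' windows. Of the 10 members, 7 had a promoter in the table, and Cebpe, Phyhip and Ppp1r3e had none. The sequences are those of the reference strain, not of the mice studied.

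The libraries held 13824780 to 20579984 counts, with 14886273 to 20579984 in WT and 13824780 to 19391431 in Nod2-/- mice. Hepatocyte markers were plentiful in every mouse. Of the 9 tested, 0 were called in edgeR, 5 were higher and 4 lower in Nod2-/- mice, and 3 had an unadjusted p under 0.05. DESeq2 called 1 of them, Cyp2e1, which was lower in Nod2-/- mice (edgeR log2 fold change -0.94 ± 0.27 SE). Of 6 endothelial markers 0 were called in edgeR (2 at an unadjusted p under 0.05, and Pecam1 called by DESeq2), and of 5 skeletal muscle markers 1 was tested and not called. Of 7 neural markers 3 were tested, and 0 were called or had an unadjusted p under 0.05. Nod2 itself had 0 to 4 counts in WT (median 2.5) and 1 to 6 in Nod2-/- mice (median 2), too few to check the genotype labels. Neutrophil and granule genes summed to 238 to 2258 normalized counts in WT and 1157 to 72392 in Nod2-/- mice, with the highest sum in Nod2-/- replicate 7. A single gene of the list, Lcn2, held most of the mean sum in both genotypes. Its means were 779 ± 726 (SD) in WT and 11283 ± 19480 (SD) in Nod2-/- mice, so the sum largely reports Lcn2. Here and below, a normalized count is the count a gene would have in a library of the mean effective size. In bulk tissue, fewer cells of a type and less RNA per cell cannot be told apart.

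Of the 10 genes, 7 were higher and 3 lower in Nod2-/- mice. All 10 passed an adjusted p of 0.05 in edgeR's quasi-likelihood test, as did 1.16% of all genes tested (0.65% higher and 0.509% lower in Nod2-/- mice). For the counts at an unadjusted p under 0.05 given above and below, the share over all genes tested was 23.1%. All 10 also passed in DESeq2's Wald test, which called 7.26% of the genes it gave an adjusted p with its default filter and 8.41% with its filter set at 0.05. In 9 of the 10 the normalized counts of the genotypes did not overlap, as in 1.44% of all genes tested (0.753% higher and 0.687% lower). The genes were chosen on this contrast, so nothing is read from either count. Lacc1 was the member whose groups overlapped.

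**Figure D1:**
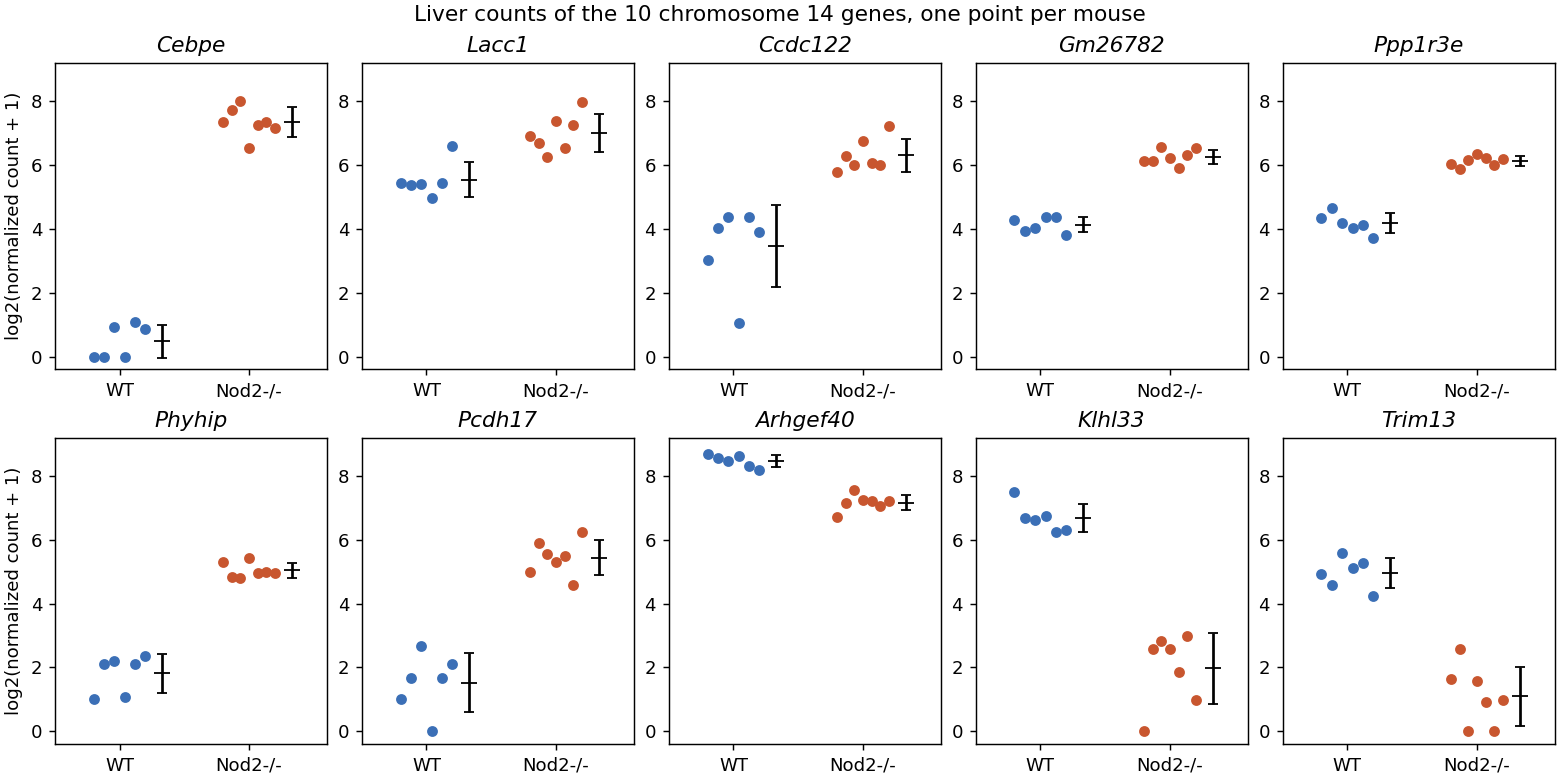
Normalized counts of the 10 genes on a log2(count + 1) axis, with 1 point per mouse (6 WT in blue, 7 Nod2-/- in orange) and the mean ± SD on that scale in black. The genotypes do not overlap in 9 panels, and in the Lacc1 panel 1 WT mouse, at 96.6 normalized counts, lies above the lowest Nod2-/- mouse at 75.0.

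Cebpe was close to absent in WT liver and clearly present in every Nod2-/- liver. Its counts were 0, 0, 1, 0, 1 and 1 in WT replicates 1 to 6, 3 counts in all. In Nod2-/- mice the lowest count was 92, the median 154 and the highest 251, 1172 in all. The normalized mean was 0.471 ± 0.524 (SD, n = 6) in WT and 169 ± 52.8 (SD, n = 7) in Nod2-/- mice. The ratio of the summed counts, scaled for depth, was 338 with a 95% exact binomial interval of 115 to 1643, which covers counting error only. The lowest Nod2-/- mouse was 83.0 times the highest WT mouse.

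Cebpe belongs to the C/EBP family, and none of the other 5 family members tested passed the threshold. Cebpa, a hepatocyte regulator, had 4737 ± 406 normalized counts in WT and 4782 ± 726 in Nod2-/- mice. Cebpe marks maturing granulocytes, so the neutrophil list is given beside it. The 6 tested genes of that list all had higher means in Nod2-/- mice, at a median log2 fold change of 4.35, all 6 had an unadjusted p under 0.05, and 0 passed the adjusted threshold in edgeR, while DESeq2 placed 7 of the 20 past it. Without Nod2-/- replicate 7, a fit added after seeing the data, the median was 1.96, all 6 had higher means, 5 had an unadjusted p under 0.05 and 0 passed the adjusted threshold. The highest list sum, Lcn2 included, among the other Nod2-/- mice was 17372 normalized counts. The mice with the highest list level were not those with the most Cebpe. Cebpe was set against the mean log2 CPM (counts scaled to equal library size, on a log2 scale) of the 6 tested list genes. Across the 7 Nod2-/- mice Pearson's r was -0.40 (exact permutation p = 0.35, adjusted p = 0.51 over 6 relations). Spearman's coefficient was -0.64 (exact permutation p = 0.139, adjusted 0.5). The untested genes of the list had no part in these values. Without the 2 mice farthest from the median, r was -0.66. Nod2-/- replicate 7, which had the highest neutrophil sum, had 145 Cebpe counts, below the median. In WT mice Cebpe had 0 or 1 count, so r there (0.38, exact permutation p = 0.425) carries no information.

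Lacc1 was higher in Nod2-/- mice with 1 exception among the WT. WT replicates 1 to 6 had 41, 37, 46, 28, 38 and 118 counts. Nod2-/- mice had 73 at the lowest, 114 at the median and 257 at the highest. The normalized means were 48.9 ± 23.8 (SD, n = 6) and 137 ± 60.0 (SD, n = 7), a log2 fold change of 1.47 ± 0.31 (SE). WT replicate 6 stood apart from the other WT mice. Without it the WT mean was 39.4 ± 4.88 (SD, n = 5), the genotypes did not overlap and the log2 fold change was 1.80 ± 0.28 (SE). This mouse was singled out after its value was seen. Lacc1 lost its call when WT replicate 1, 2, 4 or 5 was left out instead (edgeR adjusted p from 0.0923 to 0.109). The same held without Nod2-/- replicate 4, 6 or 7 (0.0597 to 0.0832) and with replicate number as a block (0.0719).

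Ccdc122, the head-to-head neighbour of Lacc1, encodes a coiled-coil protein. Its counts were 7, 14, 22, 1, 18 and 17 in WT replicates 1 to 6. In Nod2-/- mice they were 51 at the lowest, 75 at the median and 151 at the highest, and the groups did not overlap. In normalized counts the means were 12.9 ± 7.44 (SD, n = 6) and 82.8 ± 33.6 (SD, n = 7), a log2 fold change of 2.66 ± 0.41 (SE). Both genes of the pair were highest in Nod2-/- replicate 7. Across the 7 Nod2-/- mice r between them was 0.77 (exact permutation p = 0.0375, adjusted p = 0.225 over 6 relations) and Spearman's coefficient was 0.61 (exact permutation p = 0.167, adjusted 0.5). Without the 2 mice farthest from the median r was -0.18, so the relation rested on those mice. In WT r was 0.42 (exact permutation p = 0.287, adjusted 0.51), and -0.72 without 2 mice.

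Lacc1 is known from macrophages. Of the 13 genes of the macrophage list 12 had a higher mean in Nod2-/- mice, the median log2 fold change was 0.52, and 0 passed the threshold in edgeR, with 4 at an unadjusted p under 0.05 and 1, Clec1b, past it in DESeq2. The summed list had 3859 to 6923 normalized counts in WT and 4527 to 14247 in Nod2-/- mice, again highest in replicate 7. Its part in the Lacc1 difference was not tested. Within genotypes r between Lacc1 and the list was 0.49 in Nod2-/- mice (exact permutation p = 0.276, adjusted 0.51) and -0.28 in WT (exact permutation p = 0.75, adjusted 0.75). Lacc1 has been placed in the NOD2 pathway, and none of the 17 tested genes of the NOD2 signalling list passed the threshold in edgeR, with 3 at an unadjusted p under 0.05, while DESeq2 placed Tnfaip3 past it.

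**Figure D2:**
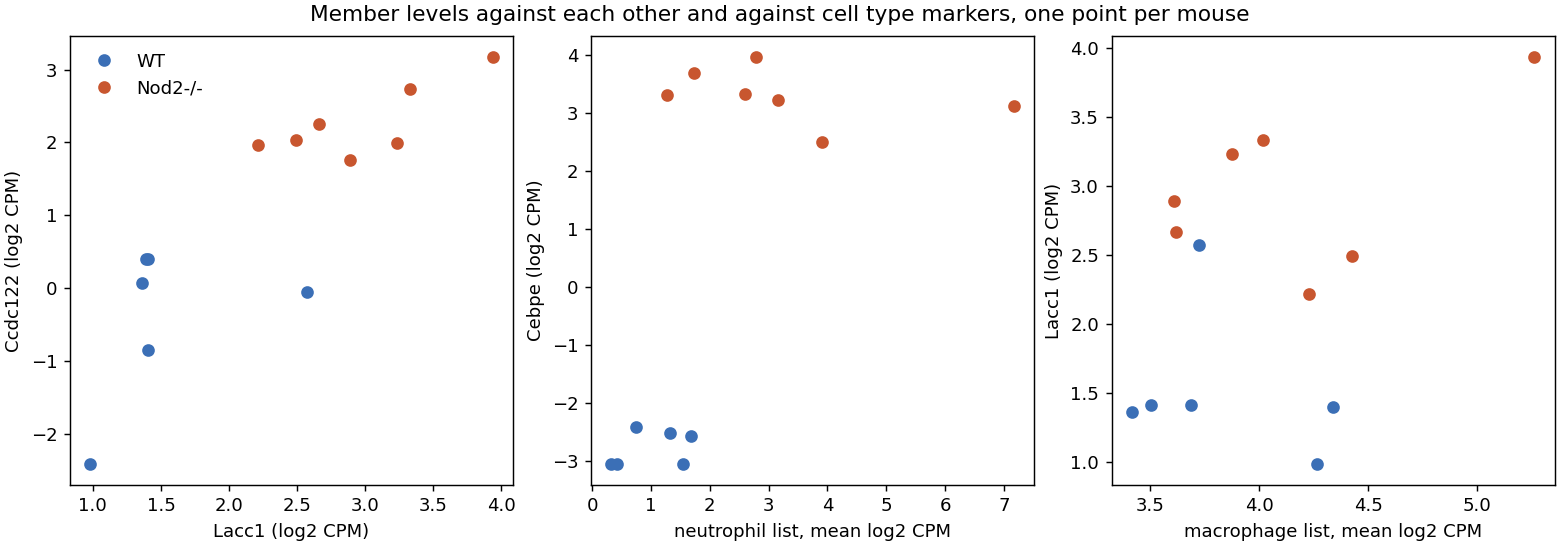
Levels of 3 pairs of measures in log2 CPM, with 1 point per mouse (WT blue, Nod2-/- orange). Ccdc122 and Lacc1 are both highest in Nod2-/- replicate 7 (left). Cebpe lies near the bottom of its axis in all 6 WT mice (middle). Its r with the mean of the 6 tested neutrophil list genes is -0.40 among the Nod2-/- mice.

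Ppp1r3e (ENSMUSG00000072494.7, chr14:54872669-54877550, minus strand) was higher in Nod2-/- mice with little spread. The 6 WT mice had 19, 22, 19, 14, 15 and 15 counts, and the 7 Nod2-/- mice had 55 at the lowest, 69 at the median and 84 at the highest. Normalized, the means were 17.5 ± 4.01 (SD, n = 6) and 68.9 ± 7.39 (SD, n = 7), a log2 fold change of 1.98 ± 0.17 (SE). It recruits protein phosphatase 1 to glycogen. None of the 16 tested genes of the glycogen list passed the threshold in edgeR, where 11 were lower and 5 higher and 4 had an unadjusted p under 0.05, and DESeq2 placed 0. Ppp1r3b, the main glycogen-targeting subunit of liver, had 5077 ± 1813 normalized counts in WT and 4500 ± 1153 in Nod2-/- mice.

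Phyhip (ENSMUSG00000003469.9, chr14:70457476-70468832, plus strand) encodes a protein that binds phytanoyl-CoA hydroxylase. WT replicates 1 to 6 had 1, 3, 4, 1, 3 and 5 counts. The Nod2-/- mice had 26 at the lowest, 31 at the median and 42 at the highest. Normalized group means were 2.74 ± 1.33 (SD, n = 6) and 32.2 ± 5.61 (SD, n = 7), a log2 fold change of 3.47 ± 0.28 (SE). Its partner enzyme Phyh was abundant, at 29613 ± 4643 normalized counts in WT and 22857 ± 4032 in Nod2-/- mice (log2 fold change -0.37 ± 0.15 SE, adjusted p = 0.148). All 7 tested genes of phytanic acid oxidation had lower means in Nod2-/- mice (median -0.34), 3 had an unadjusted p under 0.05 and 0 passed the threshold in edgeR, while DESeq2 placed Aldh3a2 and Slc27a2 past it.

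Pcdh17 (ENSMUSG00000035566.7, chr14:84443563-84539002, plus strand) had 1, 2, 6, 0, 2 and 4 counts in WT. It had 20 at the lowest, 45 at the median and 76 at the highest in Nod2-/- mice. The 2 group means, normalized, were 2.35 ± 1.88 (SD, n = 6) and 45.1 ± 17.3 (SD, n = 7), a log2 fold change of 4.14 ± 0.44 (SE). Among the other 4 tested protocadherins of the list, Pcdh18 was higher in Nod2-/- mice (7.18 ± 2.34 against 18.0 ± 3.29 normalized counts, log2 fold change 1.31 ± 0.23 SE, edgeR adjusted p = 0.017, and up to 0.0591 when WT replicate 1 or 4 was left out). Pcdh9, too low to be tested, had 0 counts in all 6 WT mice and 4.57 ± 0.956 normalized counts (SD, n = 7) in Nod2-/- mice. It passed the threshold in the edgeR fit without the low-count filter, for which the share of all genes called is not given here. Pcdh1, the most abundant of the list, had 1526 ± 56.6 in WT and 1481 ± 235 in Nod2-/- mice. Neural markers were not called, and 3 of the 7 were tested.

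Gm26782, a non-coding gene, was higher in Nod2-/- mice. The 6 WT mice had 18, 13, 17, 18, 18 and 16 counts, and the Nod2-/- mice 65 at the lowest, 70 at the median and 93 at the highest. After normalization the means were 16.8 ± 2.94 (SD, n = 6) and 76.4 ± 12.4 (SD, n = 7), a log2 fold change of 2.18 ± 0.17 (SE). It overlaps Tep1 on the opposite strand by 237 bases. Tep1 had 341 ± 78.4 normalized counts in WT and 322 ± 17.6 in Nod2-/- mice. The strand setting of the counting is not given in the sources used here, so reads of the overlap cannot be assigned to 1 gene. This limit holds as well for the opposite-strand overlaps of Trim13, Arhgef40, Lacc1 and Ccdc122.

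Klhl33, a Kelch-like gene, was nearly absent in Nod2-/- mice. WT replicates 1 to 6 had 175, 93, 107, 97, 68 and 96 counts, and Nod2-/- replicates 1 to 7 had 0, 5, 6, 5, 3, 6 and 1. The normalized means were 106 ± 37.9 (SD, n = 6) and 3.79 ± 2.62 (SD, n = 7), a log2 fold change of -4.78 ± 0.40 (SE). The lowest WT mouse was 11.0 times the highest Nod2-/- mouse. None of the 23 tested genes of the Kelch-like list passed the threshold in edgeR, with 5 at an unadjusted p under 0.05, and DESeq2 placed Cul3 and Klhl21 past it.

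Trim13 (ENSMUSG00000035235.13, chr14:61598247-61605946, plus strand) was also nearly absent in Nod2-/- mice. WT replicates 1 to 6 had 29, 21, 52, 31, 34 and 22 counts, and Nod2-/- replicates 1 to 7 had 2, 5, 0, 2, 1, 0 and 1. In normalized counts the means were 31.6 ± 10.4 (SD, n = 6) and 1.56 ± 1.72 (SD, n = 7), a log2 fold change of -4.22 ± 0.47 (SE). Trim13 shares 3108 bases with Dleu2 on the opposite strand, where reads likewise cannot be assigned to 1 gene. Dleu2 had 124 ± 20.99 normalized counts in WT and 113 ± 27.5 in Nod2-/- mice. Of 15 tested genes of endoplasmic reticulum-associated degradation, Herpud1 alone passed the threshold, and was lower in Nod2-/- mice (8453 ± 1449 against 5793 ± 776 normalized counts, log2 fold change -0.55 ± 0.12 SE, edgeR adjusted p = 0.049). Its call held in 3 of 13 fits that each left out 1 mouse (WT replicate 3, WT replicate 6 or Nod2-/- replicate 5), with adjusted p up to 0.131 in the others.

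Arhgef40 (ENSMUSG00000004562.16, chr14:51984719-52006251, plus strand) had the highest WT counts of the members and was lower in Nod2-/- mice. WT replicates 1 to 6 had 403, 341, 395, 360, 288 and 353 counts. The Nod2-/- mice had 99 at the lowest, 151 at the median and 182 at the highest. Normalized, the means were 358 ± 46.9 (SD, n = 6) and 145 ± 24.6 (SD, n = 7), a log2 fold change of -1.31 ± 0.12 (SE). Arhgef40 overlaps Zfp219 on the opposite strand by 175 bases, and Zfp219 had 281 ± 25.4 normalized counts in WT and 351 ± 83.3 in Nod2-/- mice. Across the lists, 4 of 144 tested genes passed the threshold (2.78%), Pcdh18 and Arhgef16 higher and Herpud1 and Arhgef37 lower in Nod2-/- mice. With 1 mouse left out, Arhgef16 kept its call in 9 of 13 fits (lost without WT replicates 1, 2 and 5 and Nod2-/- replicate 7, adjusted p up to 0.0766) and Arhgef37 in 4 of 13 (when the mouse left out was replicate 3 or 6 of WT, or replicate 1 or 3 of the Nod2-/- group, adjusted p up to 0.109 in the others).

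Levels were compared between genes per exon length and library size (RPKM). In WT, Arhgef40 was highest (2.08 ± 0.273 SD) and Pcdh17 lowest (0.0109 ± 0.00871 SD). In Nod2-/- mice, Cebpe was highest (8.20 ± 2.56 SD) and Klhl33 lowest (0.0363 ± 0.0251 SD). Neighbours in this order overlapped in their ranges over mice, other than Gm26782 and Phyhip in WT, and Ppp1r3e and Gm26782, and Phyhip and Pcdh17, in Nod2-/- mice. Within genotypes, pairs of members varied both together and in opposite ways. Over the 45 pairs of members the median r of the deviations from the genotype means was -0.03 across the 13 mice, with 21 pairs above and 24 below 0. It ranged from -0.61 (Arhgef40 and Phyhip) to 0.79 (Ccdc122 and Pcdh17), and Phyhip with Ccdc122 (0.69) and Klhl33 with Arhgef40 (0.67) came next. A mouse's values for all members come from 1 library. The 2 genes most alike to each member by this measure had r from 0.81 to 0.93. None of these 20 genes was on chromosome 14, which holds 469 of the 13545 tested genes. None passed the threshold in edgeR, as 1.16% of all tested genes did. At such shares few or none are expected among 20 genes, so nothing is read from either count. The r values of these 20 genes are the highest of 13545 tested genes over 13 mice. For several members the deviations in 1 genotype rest on few counts. In WT, Cebpe had 0 or 1 count, Pcdh17 0 to 6, Phyhip 1 to 5 and Ccdc122 1 to 22. In Nod2-/- mice, Klhl33 had 0 to 6 and Trim13 0 to 5. The r of any pair with these genes, the highest pairs above included, rests partly on such values.

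Some genes beside the members passed the threshold, and most did not. The 2 nearest tested genes on each side that are not members gave 30 flanking genes. Members were skipped, so members that adjoin each other (Gm26782 and Klhl33, Lacc1 and Ccdc122) do not count as neighbours. Of these, 2 passed the threshold (6.67%), against 1.16% of all tested genes. Both were lower in Nod2-/- mice (0.509% of all genes), 0 were higher, and 13 had an unadjusted p under 0.05 (23.1% of all genes). Within 250 kb of a member 6 of 51 genes passed (11.8%), Pnp2, Haus4, Ajuba, Psmb5, Ngdn and Spryd7. The median absolute log2 fold change was 0.20 for the flanking genes and 0.18 for all tested genes, and 23 of the 30 were under 0.5. Spryd7, 41.4 kb from Trim13, had 385 ± 36.8 normalized counts in WT and 193 ± 30.1 in Nod2-/- mice (log2 fold change -0.998 ± 0.111 SE, edgeR adjusted p = 0.000228), and its groups did not overlap. Cnmd, which encodes the cartilage protein chondromodulin and lies 4781 kb from Pcdh17, had 149 ± 80.7 and 52.9 ± 19.4 (log2 fold change -1.48 ± 0.32 SE, edgeR adjusted p = 0.0422). Its call was lost when any of WT replicates 1, 2, 4 and 5 or of Nod2-/- replicates 2, 4, 5, 6 and 7 was left out, which left 1 flanking gene past the threshold. Slc7a8, 10.04 kb from Cebpe, had a log2 fold change of 0.64 ± 0.24 (SE, adjusted p = 0.138), and Homez, 1.71 kb from Ppp1r3e, 0.07 ± 0.15 (SE, adjusted p = 0.804). Osgep, 8.97 kb from Klhl33, had -0.01 ± 0.14 (SE, adjusted p = 0.964).

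**Figure D3:**
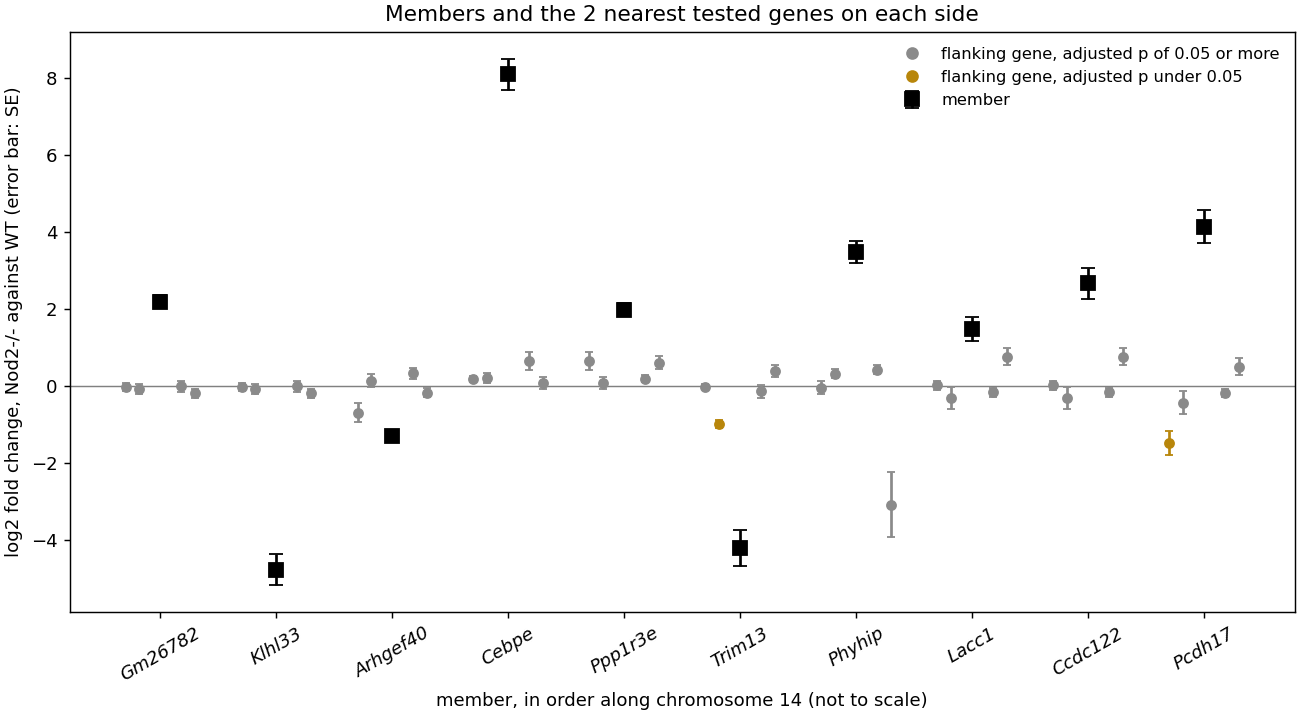
Log2 fold change of Nod2-/- against WT (error bars, SE) for each member (black squares) and for the 2 nearest tested genes on each side (circles), in order along the chromosome. The members lie between -4.78 and 8.09, and 23 of the 30 flanking genes lie within 0.5 of 0.

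The choice of the 10 genes had no numerical limit and did not take every gene of chromosome 14 that separated the genotypes. Of 459 other tested genes, 13 did not overlap (2.83%, against 1.44% of all tested genes), with 7 higher and 6 lower in the Nod2-/- group. In edgeR 13 passed the threshold (2.83%, against 1.16%), of which 8 were among those without overlap. Just inside the choice were Arhgef40, whose lowest WT mouse was 1.55 times the highest Nod2-/- mouse, and the overlapping Lacc1. Outside it were Pnp2, a purine nucleoside phosphorylase, at a log2 fold change of -2.31 ± 0.51 (SE), the membrane-bound metalloproteinase gene Mmp14 at 1.51 ± 0.29 (SE), Sall2 at 1.40 ± 0.24 (SE) and 4930480K23Rik at 1.25 ± 0.19 (SE). The others were Tmem260, Psmb5, Chmp7, Prmt5, Spryd7, Ptk2b, Nt5dc2, Rhobtb2 and Oxnad1, at absolute log2 fold changes up to that of Spryd7.

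**Figure D4:**
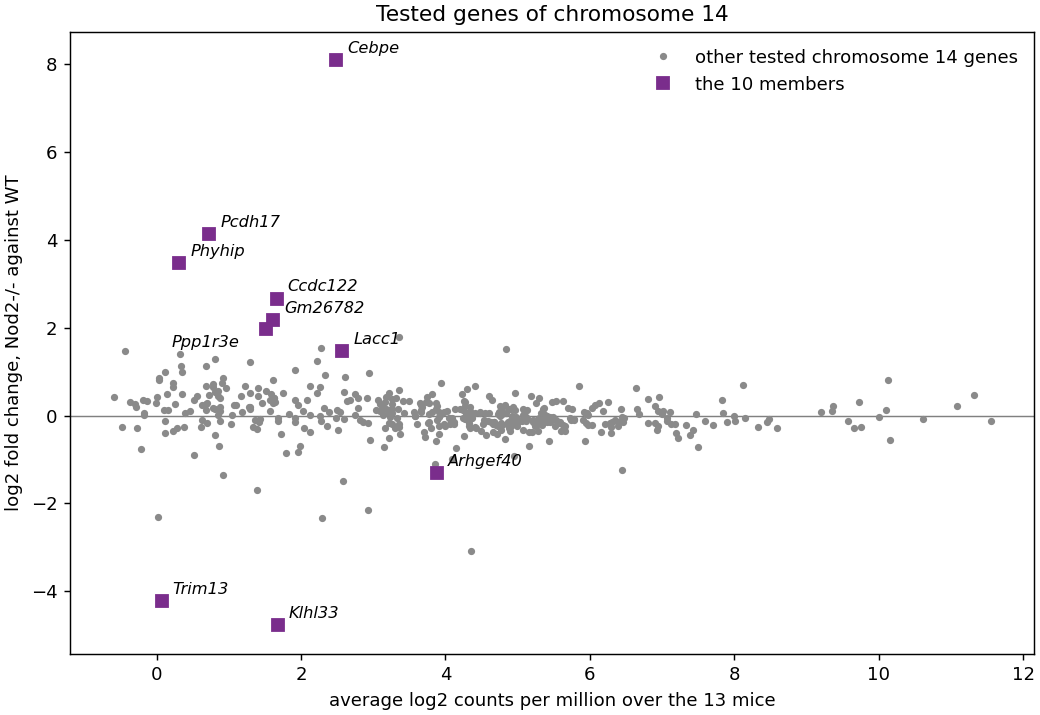
Log2 fold change of Nod2-/- against WT and average log2 CPM over 13 mice for the 469 tested genes of chromosome 14. The 10 members (purple squares) have average levels from 0.07 to 3.88 log2 CPM and fold changes from -4.78 to 8.09, and most other genes lie near 0.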

How the data were processed

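Liver polyA RNA of 6 WT and 7 Nod2-/- mice was sequenced as paired-end reads from a stranded mRNA kit. Per the labels and methods, the authors used Trimmomatic 0.33 for trimming and TopHat2 2.1.1 for mapping to GRCm38, and they deposited raw counts per gene. The counting program, its strand setting and the treatment of multi-mapping reads are not given in the sources used here. From these deposited counts, 1 row without an identifier was left out. Gene positions came from GENCODE M21, in which 53274 of 53465 identifiers were found, and promoters from RefSeq. Groups followed the genotype labels, and each library was 1 mouse, so p-values measure the spread between mice.

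The comparison was edgeR 4.0.16 (R 4.3.3) with filterByExpr, TMM, the quasi-likelihood test and Benjamini-Hochberg adjustment over 13545 genes, two-sided, and was tested on simulated data. The simulation changed only genes above a minimum mean count, by limited fold changes and at a single dispersion. It therefore does not cover the lowest or the most strongly shifted members. The SE is the log2 fold change divided by the root of F. DESeq2 1.42.0, other normalizations and filters, a replicate block and leaving out each mouse were alternatives. The flanking genes were kept as chosen from the edgeR-tested genes under every alternative. DESeq2 was first run with its independent filter set at 0.05 and with flanking genes chosen anew among all genes, which called 3 of 32 flanking genes. After these counts had been seen, it was changed to its default filter, as used for the whole series, and to the fixed flanking genes, which called 5 of 30. Both versions are kept among the alternatives. Relations within a genotype used log2 CPM (prior count 2) and exact permutation tests. Normalized counts were divided by effective library size. The members and gene lists were chosen with earlier results of these data known. Named genes were the members, flanking and list genes past 5% FDR, the nearest flanking genes compared, up to 4 further abundant genes of a list, the closest genes by correlation, and chromosome 14 genes without overlap. Pcdh9, Sftpc, Haus4, Ajuba, Ngdn and genes called by DESeq2 alone were named after their values were seen. 1 of the gene lists is not described here. Counting intervals cover counting error only.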

Additional observations from a re-analysis of the deposited data

Results flagged for a closer look

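Of the 20 groups of mice checked for a value far from the others (10 genes in each genotype), 3 held one. The check would flag about 1 in 20 groups of normally distributed values. Low counts need not be so distributed, so the 3 are not read against that rate. WT replicate 1 had 179 normalized counts of Klhl33, with the next WT mouse at 106. Nod2-/- replicate 2 had 4.96 normalized counts of Trim13 (5 counts), with the next mouse at 2.12. WT replicate 6 had 96.6 normalized counts of Lacc1, with the next WT mouse at 42.0.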

How the results depend on the processing

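Of the 10 members, all passed 5% FDR with DESeq2 under both of its filters. A minimum of 10 counts in every mouse left 4 tested and called, because 6 members were too low in 1 genotype. Without 1 mouse, 9 to 10 members passed. Lacc1 was lost when any of WT replicates 1, 2, 4 and 5 or of Nod2-/- replicates 4, 6 and 7 was left out (adjusted p from 0.0597 to 0.109). Same-numbered mice of the genotypes were not closely alike (r from -0.302 to 0.304, 1 of 6 over 0.1, and 0 of the 6 WT mice closest to its own number). These values cannot show whether same-numbered mice shared a cage, litter or batch. With the replicate block 8 members, 1 flanking gene and 1 list gene passed, and Ccdc122 (adjusted p = 0.0746) and Lacc1 (0.0719) did not. The log2 fold change of Trim13 was -4.81 without Nod2-/- replicate 2.

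Flanking genes past the threshold numbered 2 in edgeR. DESeq2 gave 5 with the default filter and 5 with alpha 0.05, 6 under either filter when the flanking genes were chosen anew among genes with an adjusted p, and 3 of 32 with alpha 0.05 when chosen anew among all genes. Without the low-count filter and chosen anew there was 1, and all tested genes within 250 kb gave 6 of 51. Without 1 mouse the count was 1 to 4, highest without WT replicate 3 (Pabpn1, Spryd7, Sftpc and Cnmd). Spryd7 passed in every one of these fits. List genes past the threshold numbered 4 of 144 tested, against 21 of 184 with DESeq2, 20 of 184 with its alpha 0.05, 2 with the minimum of 10 counts, and 0 to 13 without 1 mouse, lowest without WT replicate 1 and highest without WT replicate 3. Of all genes tested, DESeq2 called 7.26% with the default filter and 8.41% with alpha 0.05. For the other settings, those without 1 mouse included, the share of all genes called is not given here. The counts of members, flanking genes and list genes under those settings therefore cannot be read against such a share. The DESeq2 alpha of 0.05 and the flanking genes chosen anew were listed as alternatives after seeing the data. Without the 2 mice farthest from the median, r turned to -0.72 for Ccdc122 and Lacc1 in WT, -0.18 for the same pair in Nod2-/- mice, 0.24 for Lacc1 and the macrophage list in WT and -0.21 in Nod2-/- mice. The causes were not tested. At these depths a gene near 0 counts in 1 genotype has a fold change of low precision.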

Other observations

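Sftpc, the surfactant protein C gene known from lung and 52.1 kb from Phyhip, had 106 to 1786 normalized counts in WT and 7.84 to 251 in Nod2-/- livers (log2 fold change -3.09 ± 0.85 SE, edgeR adjusted p = 0.0712), and the groups overlapped. On chromosome 14, 5 genes outside the members passed the threshold with overlapping groups: Haus4, Ajuba, Ngdn, Slc25a30 and Cnmd. Ajuba had 71.4 ± 50.7 (SD, n = 6) normalized counts in WT and 252 ± 106 (SD, n = 7) in Nod2-/- mice, and the mitochondrial carrier gene Slc25a30 had 2083 ± 799 and 889 ± 321.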
